A study of Jatropha curcas with 4 samples.

Results

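ADHa (gene model Jcr4S02965.20) and ADHb (gene model Jcr4S02682.20) are the pair of alcohol dehydrogenase genes that the study of waterlogged Jatropha roots followed by quantitative PCR. They were taken by their gene IDs, as 2 of the 57437 gene models in the deposited count table, and both were among the 17410 gene models tested. The roots came from plants of Jatropha curcas, an oil seed shrub (the Thai variety Chai Nat per the paper), that were about 30 days old and had grown outdoors in pots. Waterlogged plants (waterlogging stress, WS, 2 libraries) stood for 24 h in tap water that reached 3 cm above the soil. Non-stress plants (NS, 2 libraries) stood for 24 h in containers without water. No mutant or transgene was involved, and both groups carry the same labels for age and organ. The labels give a single growing season for all libraries, whereas the paper's methods name a further season without assigning plants to it. Whole roots were ground, so each library mixes all root cell types. Libraries of poly(A) RNA were sequenced on an Ion Proton instrument, and the paper describes the replicates of a treatment as independent biological replicates.

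Alcohol dehydrogenase carries out the last step of ethanol fermentation, the reduction of acetaldehyde to ethanol with NADH as the electron donor. The step returns NAD+ to glycolysis, which can then go on making ATP when respiration lacks oxygen. The acetaldehyde comes from pyruvate through pyruvate decarboxylase. In Arabidopsis and other plants, ADH transcripts of roots are a classic marker of low oxygen.

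Primer pairs designed by the study for quantitative PCR are shown here because they hold the bases by which the copies were told apart in that assay. Primers are written from 5′ to 3′. Capitals mark the positions at which the primers of one kind differ between the copies, when laid side by side without gaps.
ADHa-F: atgTcTaGcacAgcCggTCaG
ADHb-F: atgAcAaAcacTgcAggAAaAgtcattc
ADHa-R: cactCtccacaatTccAcTAgcttc
ADHb-R: caacactTtccacaatCccTcCTg
Both forward primers begin with atg, the letters of a start codon, and over the first 21 positions they matched at 13 and differed at 8. The reverse primers matched at 16 and differed at 5 of the 21 positions compared, which are positions 1 to 21 of ADHa-R and 4 to 24 of ADHb-R. These stretches are short and were picked for primer design, so that they do not measure the identity of the whole copies.

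The gene models of the copies had the same coding layout in release 4.5 of the genome (JAT_r4.5). ADHa occupies bases 6536 to 9039 of scaffold Jcr4S02965 (minus strand), and ADHb bases 2641 to 4895 of scaffold Jcr4S02682 (plus strand). Each model has 10 coding exons, 9 introns and 1143 coding bp, which is 381 codons with the stop codon, and neither carries a note such as partial or short. In the order of transcription, the exons of both copies are 37, 137, 47, 326, 83, 76, 62, 96, 162 and 117 bp long. All 10 exon lengths and all 10 reading phases were equal. By contrast, 0 of the 9 introns had the same length. The introns sum to 1361 bp in ADHa, where the longest is intron 7 with 283 bp, and to 1112 bp in ADHb, where the longest is intron 5 with 343 bp. Introns were longer in ADHa at 5 positions and in ADHb at 4. The prediction score that the deposited annotation gives the whole model was 0.36 for ADHa and 0.29 for ADHb, with exon scores of 0.83 to 1 in ADHa and 0.74 to 1 in ADHb.

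The exon lengths of the copies were then looked up in all other gene models. A run of at least 5 consecutive coding exons with lengths equal to those of the copies occurred in 4 other models, and a run of at least 4 in 7, of which the additional ones were included after the values were seen. Jcr4S08283.20 shared a run of 6 (exons 5 to 10 of the copies), whereas Jcr4S00529.80 and Jcr4S01519.20 shared exons 2 to 6 and Jcr4S11865.10 exons 1 to 5. The reading phases within each run were equal as well. Runs of 4 were found in Jcr4S00209.170, Jcr4S00382.20 and Jcr4S02682.10. Shared exon lengths are a description of the models, and no gene name is given to these IDs.

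One of these models is the direct neighbour of ADHb. Jcr4S02682.10, annotated as partial, lies on the same strand 1123 bp upstream of ADHb (656 to 1517), and its 4 exons of 62, 96, 162 and 117 bp have the lengths of the last 4 exons of the copies. It had 3 and 0 reads in the WS libraries, against 1 and 0 reads in the NS libraries. On the other side of ADHb, Jcr4S02682.30 begins 1231 bp away and was listed at 0 reads in the 4 libraries. Beside ADHa, Jcr4S02965.10, annotated as a transposable element, ends 1897 bp away and was listed at 0 reads too. Jcr4S02965.30, at a distance of 4980 bp, had 4 and 25 reads in WS and 264 and 79 reads in NS, a log2 fold change of -3.15 (standard error 0.93) that was not called (adjusted p = 0.0983, edgeR, quasi-likelihood test). No neighbour of either copy was thus called higher in WS, although only this one had enough reads to be tested. The adjusted p of Jcr4S02965.30 was 0.000685 without a filter on low counts, 0.0141 with the likelihood ratio test and 0.00982 with DESeq2, each with lower levels in WS.

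The libraries held 4143491 and 2531520 reads assigned to gene models in WS replicates 1 and 2, and 6110438 and 1204502 reads in NS replicates 1 and 2. Levels are given as CPM, the share of a library's reads in parts per 1e6, with a trimmed mean scaling factor (TMM) for each library that sets most genes to equal levels. Over all genes tested the median log2 fold change was then 0.008. It was -0.22 with total library sizes instead, so that every fold change is relative to that choice. Photosynthesis genes, markers of green tissue that roots should hardly express, summed to 68.6 and 37.5 CPM over 7 genes in WS and to 76.9 and 65.0 CPM in NS. None of the 7 was called and none had an unadjusted p under 0.05 (quasi-likelihood test of edgeR), where 4.37% of all genes tested were called and 19.9% had such a p, so that 7 genes say little here, and their log2 fold changes ranged from -2.64 to 2.07 with a median of 0.35. Markers of single root cell types were not examined.

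ADHa was one of the most abundant transcripts of waterlogged roots. It had 30146 and 27058 reads in WS replicates 1 and 2, against 1404 and 243 reads in NS replicates 1 and 2. These counts are 0.728% (exact 95% binomial interval 0.719 to 0.736) and 1.07% (1.06 to 1.08) of the reads of the WS libraries, and 0.0230% (0.0218 to 0.0242) and 0.0202% (0.0177 to 0.0229) of those of the NS libraries. Put differently, 1 read in 137 and 1 read in 94 belonged to ADHa in WS, against 1 in 4352 and 1 in 4957 in NS. The intervals cover counting error only and leave out differences between plants and between libraries. They may be too narrow even for counting error, since reads amplified by PCR are not independent molecules. Scaled by TMM, ADHa had 8014 and 11397 CPM in WS and 215 and 184 CPM in NS. The treatments did not overlap, and the lowest WS library held 37.3 times the level of the highest NS library.

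ADHb had the same direction at a lower level. Its counts were 6476 and 8653 reads in WS replicates 1 and 2, against 342 and 129 reads in NS replicates 1 and 2. These are 0.156% and 0.342% of the reads of the WS libraries, and 0.00560% and 0.0107% of the reads of the NS libraries. In TMM-scaled CPM, ADHb had 1722 and 3645 in WS, against 52.3 and 97.6 in NS. The lowest WS library held 17.6 times the level of the highest NS library, so that the treatments did not overlap here either. Both copies together took 0.884% and 1.41% of the reads in WS, against 0.0286% and 0.0309% in NS.

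**Figure D1:**
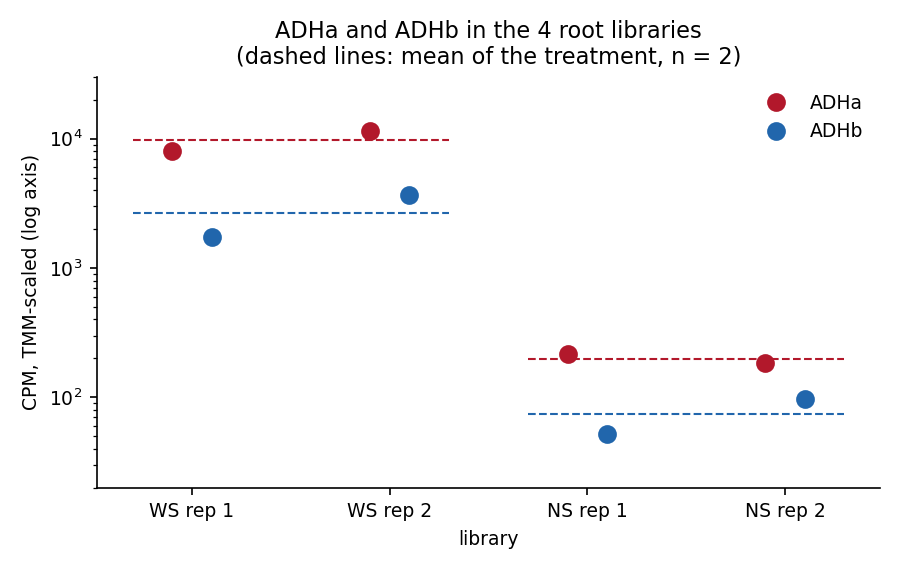
Level of ADHa and ADHb in each library, as TMM-scaled CPM on a log axis, with WS libraries left of NS libraries and a dashed line at the mean of each treatment (n = 2). Both copies sit higher in each WS library than in either NS library, and ADHa lies above ADHb in all 4 libraries.

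Waterlogging up-regulated both copies. ADHa averaged 9706 ± 2393 CPM in WS and 199 ± 21.9 CPM in NS (SD, n = 2 each). The WS level was 48.7-fold that of NS, or 5.60 ± 0.53 as log2 (estimate ± standard error, with adjusted p = 0.00258, edgeR, quasi-likelihood test). ADHb averaged 2683 ± 1360 CPM in WS and 74.9 ± 32.0 CPM in NS (SD, n = 2 each), which is 36.0-fold, or 5.17 ± 0.62 as log2 (adjusted p = 0.00377, edgeR, quasi-likelihood test). Of all genes tested, 4.37% were called in either direction and 2.45% were called higher in WS, so that calls were uncommon. In bulk roots, fewer cells of a type and less RNA per cell cannot be told apart. Without NS replicate 1 or NS replicate 2, no gene was called by edgeR at all (2923 and 1823 genes at an unadjusted p under 0.05), ADHa having an adjusted p of 0.113 and 0.111 in these fits and ADHb one of 0.142 and 0.118.

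The place of the fold changes depended on the genes ranked. ADHa ranked 109 and ADHb 137 by fold change among the 427 up-regulated genes, whose median log2 fold change was 4.05. Of these, 237 had at least 10 reads in both NS libraries. Among those 237, 6 had a higher fold change than ADHa and 13 a higher one than ADHb. A minimum of reads in NS leaves out genes with low NS levels, which tend to have the highest fold changes. The higher place of the copies is thus partly set by that choice. By the gain in CPM, WS minus NS, ADHa ranked second of all genes tested with 9506 CPM and ADHb ranked 16 with 2608 CPM. A single up-regulated gene had a higher mean CPM in WS than ADHa, and 15 had a higher one than ADHb.

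**Figure D2:**
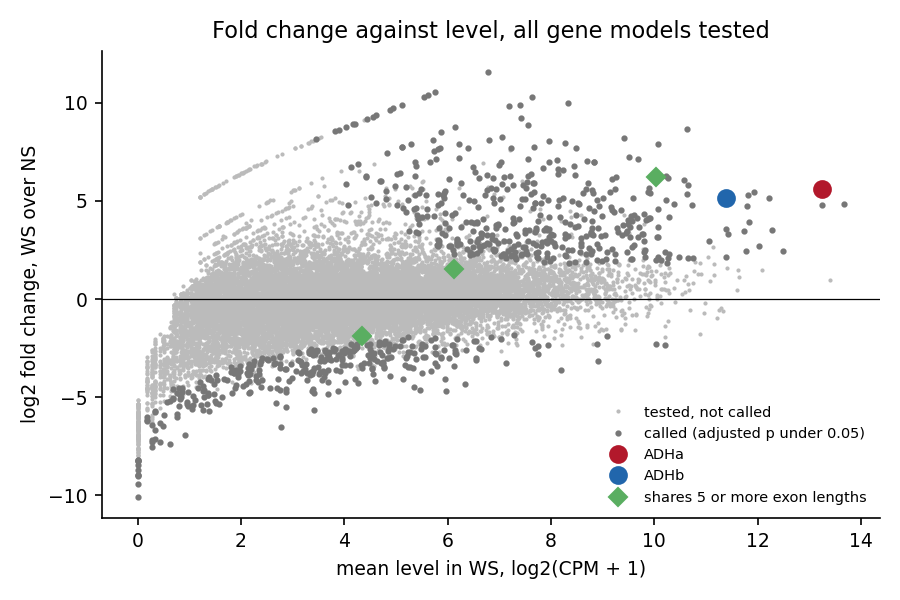
Log2 fold change of WS over NS (y axis) against the mean level in WS as log2(CPM + 1) (x axis) for the 17410 gene models tested. ADHa (5.60) and ADHb (5.17) lie at the far right among the called genes, and diamonds mark the 3 tested models that share at least 5 consecutive exon lengths with them.

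Between genes, levels were compared as coding TPM, each model's share of the library's reads per coding kilobase, in parts per 1e6. ADHa had 5722 and 7661 coding TPM in WS and was the sixth most abundant gene model of both WS libraries. It had 188 and 166 coding TPM in NS, at ranks 893 and 1098 of the 21708 and 17351 gene models with reads. ADHb had 1229 and 2450 coding TPM in WS, at ranks 90 and 37, against 45.9 and 87.9 in NS, at ranks 3965 and 2196. By the mean over the WS libraries, ADHa came to rank 5 with 6691 ± 1371 and ADHb to rank 50 with 1840 ± 863 coding TPM (SD, n = 2). The rank of ADHa depended on the length used: with reads alone it was 3 in both WS libraries, and per kilobase of the whole model, introns included, it was 15 and 13.

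Genes next to the copies in this order differed from them by less than the spread between WS libraries, with a single exception. Jcr4S01431.90 stood directly above ADHa with 7658 ± 1963 coding TPM and Jcr4S00240.270 and Jcr4S23269.10 directly below it with 5754 ± 1017 and 5727 ± 3402 (SD, n = 2). Within each WS library, ADHa nonetheless lay below Jcr4S01431.90 (6270 and 9046 coding TPM) and above Jcr4S00240.270 (5034 and 6473). Jcr4S23269.10 (3322 and 8132) lay below ADHa in WS replicate 1 and above it in WS replicate 2. In the NS libraries these 3 genes had between 3118 and 4958 coding TPM, while ADHa had 188 and 166, and none of them was called. The exception was Jcr4S00120.50 at rank 3, with 16772 ± 3562 coding TPM, which was itself up-regulated with a log2 fold change of 3.53 (adjusted p = 0.00730, edgeR).

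Around ADHb, Jcr4S01884.70 and Jcr4S01510.80 stood above with 1865 ± 784 and 1863 ± 168 coding TPM in WS, and Jcr4S03520.10 and Jcr4S02362.60 below with 1828 ± 1121 and 1809 ± 1622 (SD, n = 2). The order of these 5 genes therefore cannot be told from the WS libraries. Jcr4S02362.60 was the only one of the 4 neighbours that was called, with a log2 fold change of 7.91 (adjusted p = 0.00793, edgeR). It had 14.9 and 0 coding TPM in NS, so that the size of this fold change is uncertain. The value was 6.49 without WS replicate 1 and 14.4 without NS replicate 1.

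A readout that does not use library scaling is the level of each copy relative to another gene in the same library, per coding kilobase. Actin (Jcr4S01082.10), a cytoskeleton gene of the study's quantitative PCR panel, had 779 and 825 CPM in WS, against 1501 and 1355 CPM in NS. It was not called by the quasi-likelihood test of edgeR (log2 fold change -0.83, adjusted p = 0.299), although it was lower in both WS libraries than in either NS library.

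Relative to actin, ADHa stood at 10.2 and 13.7 in WS, against 0.142 and 0.135 in NS. ADHa was thus above actin in WS and below it in NS. ADHb stood at 2.19 and 4.38 times the level of actin in WS, against 0.0346 and 0.0715 times in NS. On the log2 scale, the differences between WS and NS were 6.42 for ADHa and 5.96 for ADHb. Both comparisons gave p = 0.333 in a two-sided exact permutation test, which is the smallest value that 2 against 2 libraries allow, so that this test cannot pass a threshold of 0.05.

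The copies varied unequally between replicates. From replicate to replicate, ADHa in WS replicate 2 was at 1.42 times its level in WS replicate 1, and in NS replicate 2 at 0.856 times its level in NS replicate 1. ADHb was at 2.12 times in WS and at 1.87 times in NS. Over the 4 pairs of a WS and an NS library, the fold ranged from 37.3 to 62.0 for ADHa and from 17.6 to 69.7 for ADHb. Between these replicates ADHb thus differed more than ADHa in both treatments, and its share of the pair was higher in replicate 2 of each treatment. With 2 libraries per treatment, a difference in variability was not tested, and the replicate numbers are only labels.

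ADHa supplied most reads of the pair in all 4 libraries. Its share was 82.3% (exact 95% binomial interval 81.9 to 82.7) and 75.8% (75.3 to 76.2) in WS replicates 1 and 2, and 80.4% (78.5 to 82.3) and 65.3% (60.2 to 70.2) in NS replicates 1 and 2. As a ratio, ADHa had 4.66 and 3.13 reads for each ADHb read in WS, and 4.11 and 1.88 in NS. Because both models have the same coding length, this ratio is also the ratio per kilobase. The lower WS ratio fell between the NS ratios, so that the treatments overlapped.

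**Figure D3:**
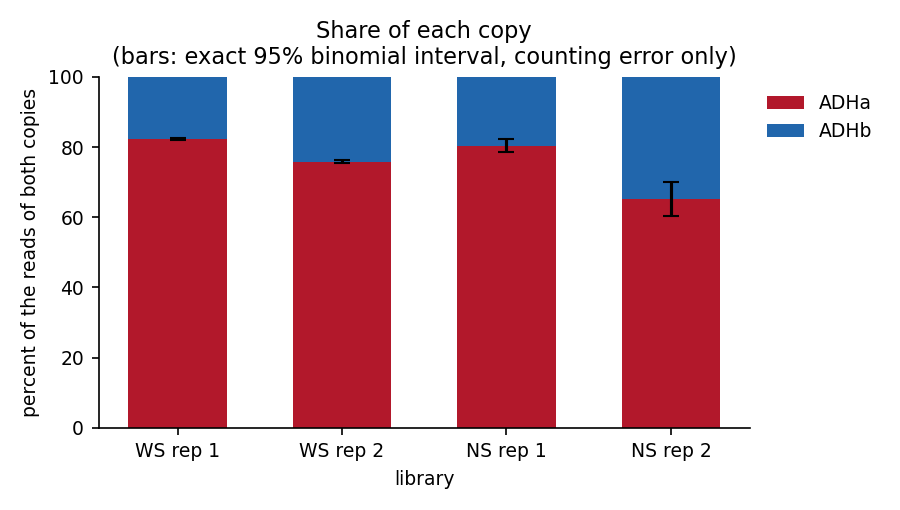
Share of ADHa and ADHb in the reads of both copies (y axis, percent) in each library, with WS libraries left of NS libraries and the exact 95% binomial interval of the ADHa share. The shares of ADHa are 82.3% and 75.8% in WS and 80.4% and 65.3% in NS, and those of replicate 2 are the lower ones in both treatments.

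The log2 ratio of ADHa over ADHb averaged 1.93 ± 0.41 in WS and 1.48 ± 0.80 in NS (SD, n = 2 each). The difference of 0.46 was smaller than the spread between the NS libraries (p = 0.667, two-sided exact permutation test, smallest possible p = 0.333). It was -0.11 without NS replicate 2 and 1.02 without NS replicate 1, so that its direction rests on single NS libraries. Within a treatment, the log2 ratio of replicate 1 exceeded that of replicate 2 by 0.57 in WS and by 1.12 in NS. A change in the balance of the copies was therefore not detectable with these libraries, which does not show that the balance was equal. The sources used here do not say how reads that match both copies were counted, and such reads could shift the ratio in every library.

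Of the models that share at least 5 consecutive exon lengths with the copies, Jcr4S00529.80 was up-regulated as well. On scaffold Jcr4S00529 (39110 to 41919, plus strand), it has 10 coding exons and 1332 coding bp. It had 4185 and 2309 reads in WS, against 116 and 13 reads in NS. In CPM these were 1113 and 973 in WS and 17.7 and 9.83 in NS, without overlap. On the log2 scale the fold change was 6.20 (standard error 0.56 and adjusted p = 0.00258, edgeR, quasi-likelihood test), with adjusted p = 0.102 or 0.110 without NS replicate 1 or 2. Its level thus stood below that of ADHb in each library, and unlike ADHb it was lower in replicate 2 of both treatments. The sources used here do not say how reads that match this model and a copy were counted, and their part in its level was not tested.

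Jcr4S08283.20 lay in the other direction. It had 17.0 and 21.5 CPM in WS, against 67.4 and 76.4 CPM in NS, a log2 fold change of -1.90 (standard error 0.52) that did not pass the test (adjusted p = 0.0750, edgeR, quasi-likelihood test). The treatments did not overlap, which 2 against 2 libraries reach easily without a difference. The call depended on the test: without a filter on low counts, with the likelihood ratio test and with DESeq2 the adjusted p was 0.0275, 0.0219 and 0.0315. Jcr4S01519.20 had 85.3 and 52.2 CPM in WS, against 24.0 and 22.7 CPM in NS, and its log2 fold change of 1.56 (standard error 0.53) did not pass (adjusted p = 0.140, edgeR). Jcr4S11865.10 had 2 and 14 reads in WS and none in NS and was not tested. Among the models with runs of 4, Jcr4S00209.170 had 142 and 198 CPM in WS, against 132 and 179 CPM in NS, and a log2 fold change of 0.13 (adjusted p = 0.917, edgeR) whose sign turned with total library sizes. Jcr4S00382.20 was listed at 0 reads in the 4 libraries.

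Summed per coding kilobase over ADHa, ADHb and these 4 models, the copies held 90.3% and 94.3% of the sum in WS, against 73.5% and 74.5% in NS. ADHa accounted for 74.3% and 71.4% of the sum in WS replicates 1 and 2, against 59.1% and 48.7% in NS replicates 1 and 2. ADHb accounted for 16.0% and 22.8% in WS, against 14.4% and 25.8% in NS. Jcr4S08283.20 accounted for 0.137% and 0.117% in WS, against 16.1% and 17.6% in NS. Jcr4S00529.80 accounted for 8.85% and 5.23% in WS, against 4.19% and 2.24% in NS. The share of ADHa was thus higher in both WS libraries, that of ADHb overlapped between treatments, and Jcr4S08283.20 was above ADHb in NS replicate 1 only. The shares depend on the models summed: with the 7 models that share at least 4 exon lengths, an alternative added after the data were seen, the copies held 89.1% and 93.2% in WS, against 54.2% and 51.0% in NS, and ADHa alone 73.3% and 70.6% in WS, against 43.6% and 33.3% in NS. Most of that shift comes with Jcr4S00209.170, which had 113 and 157 coding TPM in NS, above ADHb in both NS libraries. These shares are given as a description, with no test.

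**Figure D4:**
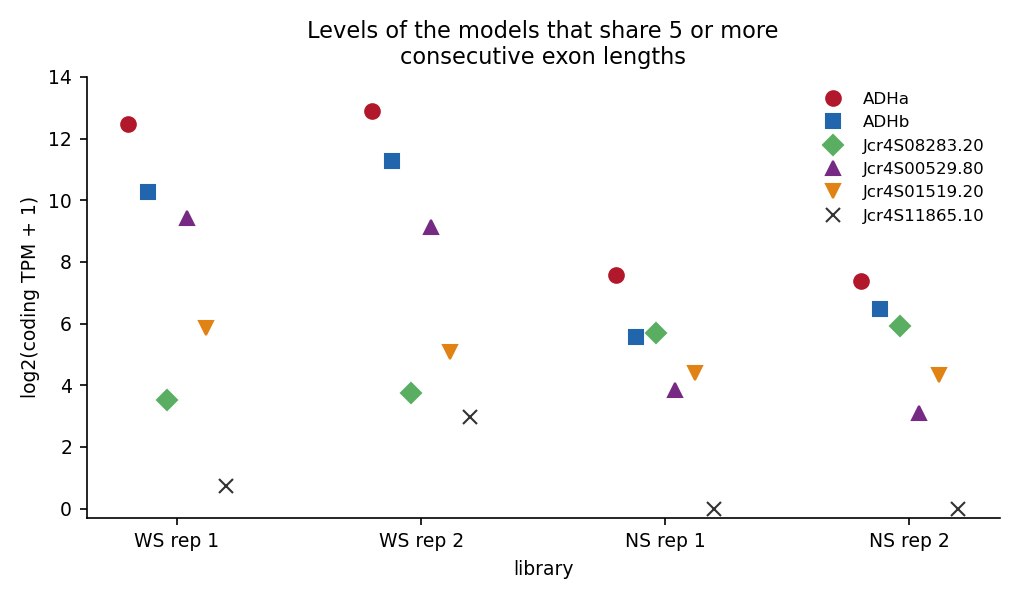
Level of ADHa, ADHb and the 4 models that share at least 5 consecutive exon lengths with them, as log2(coding TPM + 1) (y axis) in each library, with WS libraries left of NS libraries. ADHa is the highest in all 4 libraries, Jcr4S00529.80 lies below ADHb in WS (682 and 561 coding TPM, against 1229 and 2450 for ADHb), and Jcr4S08283.20 is lower in WS than in NS.

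Sugar breakdown feeds the substrate of fermentation, and 10 genes of glycolysis, fermentation, sucrose and starch metabolism and related steps were at hand with a functional bin. None of them was called in either direction (edgeR, quasi-likelihood test), 2 had an unadjusted p under 0.05, and their median log2 fold change was 0.46, against 0.008 for all genes tested. Over all genes tested 4.37% were called and 19.9% had an unadjusted p under 0.05, so that these counts lie near the background. The list covers only the part of the annotation at hand and is no survey of the pathway. From its own test over all genes, the paper reports higher expression of genes of glycolysis and fermentation in waterlogged roots. These include sucrose synthase and pyruvate decarboxylase. The highest value was that of a pyrophosphate-dependent phosphofructokinase gene (Jcr4S00002.120), an enzyme of cytosolic glycolysis, with 1054 and 853 CPM in WS, against 316 and 294 CPM in NS. Its log2 fold change of 1.64 (standard error 0.42) missed the threshold (adjusted p = 0.0632), which it passed with the likelihood ratio test, DESeq2 and limma (adjusted p = 0.0303, 0.0128 and 0.0260). The lowest was that of a starch phosphorylase gene (Jcr4S00024.70), which releases glucose phosphate from starch, with 23.1 and 13.9 CPM in WS, against 65.2 and 47.6 CPM in NS (log2 fold change -1.60, adjusted p = 0.151). Neither copy was in this list. Its alcohol dehydrogenase entry was of the cinnamyl type (Jcr4S00003.300) known from lignin synthesis. That gene had 188 and 43.4 CPM in WS, against 194 and 175 CPM in NS (log2 fold change -0.67, adjusted p = 0.623, edgeR). An aldehyde dehydrogenase gene of the fermentation bin (Jcr4S00017.60) had 12 and 0 reads in WS, against 48 and 1 reads in NS, too few to place it (log2 fold change -1.36, adjusted p = 0.712). No pyruvate decarboxylase was in the list at hand, so that the step before alcohol dehydrogenase was not analysed here.

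Both copies belong to the panel of 10 genes that the study chose from these samples for quantitative PCR, of which 6 were up-regulated and 1 was down-regulated in the fit used here. Over all genes tested, 4.37% were called in either direction and 2.45% were called higher in WS. Because the panel was picked on the same libraries, its counts are not independent evidence. The paper reports that its real-time PCR, on the samples used for sequencing, also found ADHa and ADHb higher after waterlogging. It further reports semi-quantitative PCR in which alcohol dehydrogenase genes rose in roots and not in leaves. JcERFVII-2 (Jcr4S00982.160) and JcERFVII-3 (Jcr4S01651.60), of the group VII ethylene response factors that control the low oxygen response in Arabidopsis, had log2 fold changes of 3.48 (adjusted p = 0.00706) and 4.20 (adjusted p = 0.00765). JcERFVII-1 (Jcr4S00420.40) had 1038 and 892 CPM in WS, against 946 and 601 CPM in NS, and was not called (log2 fold change 0.32, adjusted p = 0.758). Nitrate reductase (Jcr4S02321.10) and the trihelix transcription factor (Jcr4S02762.30) had log2 fold changes of 5.81 (adjusted p = 0.00730) and 6.08 (adjusted p = 0.00599), differences from the copies not being tested, and the proline-rich cell wall protein gene (Jcr4S00695.60) had -4.67 (adjusted p = 0.00351). The nitrate reductase values in WS were 2731 and 469 CPM, so that its spread between replicates was wider than that of either copy. Leaving out either NS library ended the call of each panel gene that had one, as it did for the copies. Of these genes, ADHa had the highest CPM in both WS libraries.

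The 5 gene models most like each copy across the 4 libraries were found by the distance of their log2(CPM + 1) values after centring on their own mean, where 0 means the same pattern. The measure takes direction and size together, and a distance over 4 libraries says little beyond the treatment difference and the replicate pattern. Nearest to ADHa was Jcr4S06575.30 at 0.12, a model annotated as short, with 179 and 227 CPM in WS, against 3.52 and 3.03 CPM in NS. Jcr4S10375.10 (0.18), Jcr4S03288.70 (0.29), Jcr4S10893.10 (0.32) and Jcr4S00999.10 (0.39) followed. All 5 were called higher in WS, which a choice by likeness to an up-regulated gene favours. None had more than 252 CPM in a WS library, so that the addition of 1 to their low NS values sets part of their place. ADHb came 31st in this order, at 1.00.

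Nearest to ADHb was Jcr4S00616.50 at 0.41, a short model with 7391 and 18893 CPM in WS, against 315 and 606 CPM in NS. It is the up-regulated gene whose mean CPM in WS exceeded that of ADHa. Like ADHb, it was higher in replicate 2 than in replicate 1 of both treatments. Jcr4S03028.20 (0.41), Jcr4S03288.60 (0.47), Jcr4S02562.40 (0.57) and Jcr4S02621.50 (0.70) followed, and ADHa came 14th. Jcr4S03288.70 in the list of ADHa and Jcr4S03288.60 in that of ADHb have consecutive numbers on a single scaffold. All 5 were called higher in WS, with log2 fold changes from 4.84 to 8.12. The highest was that of Jcr4S02562.40, which had 0 and 1 reads in NS. Its size is therefore uncertain, at 5.97 without NS replicate 1 and 10.8 without NS replicate 2. Here too, the choice by likeness to an up-regulated gene favours such calls, so that they are no separate result. Only Jcr4S00616.50 exceeded the copies in abundance.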

How the data were processed

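The authors mapped trimmed Ion Proton reads with TMAP to release 4.5 of the Jatropha genome and counted them with HTSeq over annotated coding regions, and the raw read counts of 57437 gene models were deposited. Tool versions, the use of strand and the treatment of reads that match several places are not given in the sources used here. The deposited annotation also gives a prediction score per model, and the count table gives a model length. The rank per whole model used the length from start to end of each model in the annotation. The deposited table of the authors' own comparison (fold changes, likelihood ratios, p-values and CPM) was not used.

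The comparison used the edgeR 4.0.16 quasi-likelihood test under R 4.3.3 (two-sided, TMM scaling, at least 1 CPM in at least 2 libraries, 17410 gene models, Benjamini-Hochberg adjusted p under 0.05), and its script was tested on simulated data in which 200 genes were changed. CPM are over the total reads times the TMM factor, and coding TPM use the summed coding exons. Single values were compared by two-sided exact permutation over libraries, and shares have exact (Clopper-Pearson) 95% intervals. Intervals and permutations came from scipy 1.17.1, figures from matplotlib 3.10.9 and the rest from numpy 2.4.6 and pandas 2.3.3, all under Python 3.11.15. The totals of 1204502 to 6110438 reads per library set the precision.

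Named genes are both copies, the lists of carbon metabolism and of the study's quantitative PCR panel, the models next to each copy on its scaffold or in rank (2 above and 2 below), the 5 models nearest in pattern, and models sharing at least 5 consecutive exon lengths. The 3 models sharing 4 were added after their values were seen. Members and lists were chosen with earlier results of these data known. Functional bins came from the 665 rows of the study's gene annotation at hand. Alternatives were RLE, upper quartile and total library scaling, other filters, the likelihood ratio test, DESeq2 1.42.0, limma 3.58.1 voom, a replicate block and leaving out each library. For the ratio, they were coding kilobases, a pseudocount of 1 and pooled counts. Sequences of the genome, promoters and proteins were not used here. Levels relative to a further gene of the panel are not reported here.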

Additional observations from a re-analysis of the deposited data

How the results depend on the processing

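ADHa and ADHb kept their direction in all alternatives that were run and their call in those that kept all 4 libraries, with log2 fold changes from 5.38 (total library size) to 5.64 for ADHa and from 4.94 (total library size) to 5.24 for ADHb. With each library left out in turn, the values ranged from 5.30 to 5.89 for ADHa and from 4.51 to 5.66 for ADHb. Without NS replicate 1 the log2 fold change was 5.70 (adjusted p = 0.113, edgeR) for ADHa and 4.76 (adjusted p = 0.142) for ADHb, and without NS replicate 2 it was 5.48 (adjusted p = 0.111) and 5.66 (adjusted p = 0.118), in fits with 1 NS library that is assumed to vary like the WS libraries. The 760 genes called became 1963 without a filter on low counts, 2004 with the likelihood ratio test and 1695 with DESeq2, and ranged from 0 (without either NS library) to 2186 (without WS replicate 2) with libraries left out, and the cause was not tested. The log2 ratio of ADHa over ADHb differed between WS and NS by -0.11 to 1.02 when a library was left out, the negative value being that without NS replicate 2 (-0.106), and by 0.11 with counts pooled per treatment. Jcr4S00209.170 turned to -0.10 with total library sizes and ranged from -0.15 (without WS replicate 2) to 0.39 (without WS replicate 1) with libraries left out, being negative without NS replicate 1 as well. The alternatives for genes other than the copies were added after the data were seen.

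The replicate block gave log2 fold changes of 5.59 for ADHa and 5.13 for ADHb (adjusted p = 4.97e-07 and 5.83e-07, edgeR) and 1684 called genes. The replicate numbers are only labels: the deviations of same-numbered libraries from their treatment means correlated at 0.0868 across the genes tested. Depth limits the copies least in WS, with at least 6476 reads, and most in NS replicate 2, with 243 and 129 reads.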
